A study of Rattus norvegicus with 23 samples.

Results

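The genes of oxidative phosphorylation were followed in the rat area postrema, a sensory circumventricular organ on the dorsal medulla whose capillaries are leaky to blood-borne signals. They were chosen by name alone, from the probe sets that carry exactly 1 gene symbol: symbols that start with Nduf, Uqcr or Atp5, the 4 genes Sdha to Sdhd, and symbols in which Cox is followed by 4, 5, 6, 7 or 8. This gave 86 genes of the 14218 with such a probe set, each read at the brightest of its probe sets (mean of log2(signal + 16) over the arrays). By known role 70 of them encode subunits, of which 34 belong to complex I, 4 to complex II, 7 to complex III, 10 to complex IV and 15 to complex V. The other 16 were 6 complex I assembly factors (Ndufaf1, Ndufaf3, Ndufaf4, Ndufaf5, Ndufaf7 and Ndufaf8), 6 complex IV isoforms known mainly from other tissues (Cox4i2, Cox6a2, Cox6b2, Cox7a1, Cox7b2 and Cox8b), and 4 others: Ndufa4l2, Cox7a2l, the pseudogene Cox6c-ps1 and Atp5if1, the inhibitor of ATP synthase.

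The study compared the area postrema of hypertensive, fasted and dehydrated rats on Affymetrix Rat Genome 230 2.0 arrays, 23 in all, each a pool of tissue from 5 male animals. The spontaneously hypertensive rat (SHR, an inbred hypertensive strain) and the Wistar Kyoto rat (WKY, the normotensive strain it is commonly set against) were 10 to 13 weeks old, with 5 arrays for each. Sprague Dawley (SD) rats of 10 to 12 weeks gave 4 control arrays, 5 arrays after 48 h of food restriction (called fasted here, as in the titles) and 4 arrays after 72 h of dehydration. Pooling hides the spread between animals, so that the p-values measure only the spread between these arrays. The SHR and WKY arrays carry a different description of the labelling from the Sprague Dawley arrays, so strain and labelling set cannot be told apart between these 2 sets, and no test was made across them.

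Oxidative phosphorylation is the last stage of respiration in the inner mitochondrial membrane. Complex I takes electrons from NADH and complex II takes them from succinate, and both hand them to ubiquinone. Complex III passes them to cytochrome c, complex IV passes them to oxygen, and complexes I, III and IV pump protons whose return through complex V, the ATP synthase, drives ATP formation. Most subunits are encoded in the nucleus and have to be made in step with the few encoded by mitochondrial DNA. Neurons depend on this pathway for the ion pumping that follows synaptic activity.

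Nuclear genes of the pathway are known targets of the transcription factors NRF1, GABP (also called NRF-2), YY1 and the oestrogen-related receptors (ERR). RefSeq promoters, taken as 250 bases before to 50 after each gene's start in the assembly GRCr8, were available for 78 of the 86 genes. They come from a reference rat and not from the strains measured. A short core of each factor's motif was searched on both strands, namely GCGCANGC for NRF1, CCGGAAG for GABP, AANATGGC for YY1 and AAGGTCA for ERR, where N is any base and matches may overlap. YY1 letters were in 32 of the 78 member promoters (41.0%) and in 7.7% of 21851 promoters of protein-coding genes. NRF1 and GABP letters were in 22 members each (28.2%), against 11.6% and 10.7% of all promoters, and ERR letters in 11 (14.1%), against 3.8%. Median GC content was 56.0% in the members and 55.0% in all promoters. A match is a run of letters and was not tested as a binding site.

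The 250 bases before the start are shown, on the gene's strand from 5′ to 3′ and with motif matches in capitals, for the 2 members that differed between the strains (Ndufv3 and Sdha) and the 2 with the smallest p after fasting (Uqcrq and Ndufb6). Ndufv3 lies at chr20:9613536-9613785 (plus strand), Sdha at chr1:30764303-30764552 (plus strand), Uqcrq at chr10:38089979-38090228 (minus strand) and Ndufb6 at chr5:60206153-60206402 (minus strand). The start is that of RefSeq's promoter table, which for 56 of the 78 genes is the outer edge of the gene in RefSeq's gene table. It is so for Ndufv3, Sdha and Ndufb6, but for Uqcrq it lies 3893 bases inside the gene, whose listed extent reaches farther upstream.
Ndufv3: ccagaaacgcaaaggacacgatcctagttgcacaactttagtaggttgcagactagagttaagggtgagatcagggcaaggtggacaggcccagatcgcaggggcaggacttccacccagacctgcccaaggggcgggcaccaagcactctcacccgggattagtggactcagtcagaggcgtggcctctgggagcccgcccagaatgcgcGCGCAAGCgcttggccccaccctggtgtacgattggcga
Sdha: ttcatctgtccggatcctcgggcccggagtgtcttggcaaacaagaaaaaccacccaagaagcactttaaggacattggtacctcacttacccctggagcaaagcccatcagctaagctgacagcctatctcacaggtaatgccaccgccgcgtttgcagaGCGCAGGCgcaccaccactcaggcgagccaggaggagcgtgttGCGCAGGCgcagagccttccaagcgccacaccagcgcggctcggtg
Uqcrq: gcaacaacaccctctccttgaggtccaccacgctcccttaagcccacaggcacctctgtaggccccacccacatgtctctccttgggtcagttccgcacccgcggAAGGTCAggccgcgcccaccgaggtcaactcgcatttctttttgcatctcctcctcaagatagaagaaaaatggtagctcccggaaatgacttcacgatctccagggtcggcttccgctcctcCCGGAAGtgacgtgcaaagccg
Ndufb6: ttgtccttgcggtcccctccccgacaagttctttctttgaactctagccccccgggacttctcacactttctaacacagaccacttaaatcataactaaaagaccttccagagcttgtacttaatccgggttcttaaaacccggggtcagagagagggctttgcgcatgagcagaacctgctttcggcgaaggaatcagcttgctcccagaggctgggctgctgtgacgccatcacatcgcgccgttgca
Ndufv3 held 1 NRF1 match that starts 39 bases before the gene's start, and Sdha held 2, which start 89 and 46 bases before it. Uqcrq held a GABP match at 22 bases and an ERR match at 145 bases before the start that the promoter table gives it. Ndufb6 held none of the 4 in this stretch.

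Signals are on the linear scale of the deposited values, in which every array has a trimmed mean of 100, and differences are on the log2(signal + 16) scale. Array medians ran from 39.8 to 44.5. Replicate arrays correlated at 0.975 to 0.985 within their groups, and no pair was identical. The arrays carried markers of the area postrema's neurons and glia, and Snap25, a synaptic protein, had group means from 2297 to 2846. The mean of 8 choroid plexus markers, centred over the 23 arrays on the log2 scale, stood above 1 in control 3 (1.095), fasted 4 (1.197) and dehydrated 3 (1.063) and between -0.585 and 0.541 in the other 20 arrays. Ttr, the transthyretin that choroid plexus makes in bulk, had the widest range of these markers, 44.2 to 7953. Results that rest on these 3 arrays are given with and without them. The 3' to 5' ratio of the Gapdh control probe sets, a measure of RNA integrity, had a log2 mean of 0.208 in SHR, 0.126 in WKY, 0.341 in controls, 0.222 in fasted and 0.409 in dehydrated arrays, and none of the 4 differences passed (exact permutation test, two-sided, p = 0.286 for SHR against WKY, 0.127 and 0.571 for fasted and dehydrated against control, 0.0635 for dehydrated against fasted).

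Most of these genes gave strong signals. The median member lay at the 98.3th percentile of all probe sets, and 68 of the 70 subunits lay above the 90th. The highest means belonged to Atp5f1b, the catalytic beta subunit of ATP synthase, Cox8a and Cox6c of complex IV, Atp5mc3, a gene of the membrane-embedded c ring, and Uqcr10 of complex III. Atp5f1b ranged from 2909 to 5010 over the 23 arrays and Cox8a from 3189 to 4599. Probe sets differ in how they bind, so these levels order probe sets and not transcript numbers.

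The lowest were the complex IV isoforms of other tissues. Cox8b, a heart and skeletal muscle isoform, stayed between 0.582 and 22.8, Cox6a2, also of muscle, between 1.75 and 21.5, Cox7b2 between 0.768 and 17.0, and Cox4i2, an isoform known from lung, between 13.7 and 33.3. These 4 lay below the filter on low signals and were not tested, which left 82 members in every fit. Cox6b2, a testis isoform (25.3 to 52.6), and Cox7a1, of muscle (7.18 to 62.6), lay just above it, as did the assembly factor Ndufaf1 (26.6 to 54.9). The assembly factors had a median at the 80.5th percentile.

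Across arrays the subunits moved together. With the group means removed, the correlation of a gene with the mean of the other members had a median of 0.74 over the 70 subunits and exceeded 0.5 for 61 of them. It was highest for Uqcr10 (0.938), Atp5pd, of the peripheral stalk of ATP synthase (0.91), and Ndufa1 (0.908). The medians were 0.71, 0.59, 0.73, 0.83 and 0.77 for the subunits of complexes I to V. The assembly factors had a median of 0.13 and the isoforms of other tissues, most of them below the filter on low signals, -0.07. These are descriptions over 23 arrays that share scaling and tissue content. No such share was taken over all other genes, so the values do not set the subunits apart from them.

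Ndufs4, a complex I subunit whose loss is known from Leigh syndrome in humans, did not follow the others (0.065). Its signals ran from 172 in control 3 to 719 in WKY 3. In the SHR arrays they were 546, 502, 587, 436 and 315, in WKY 325, 313, 719, 444 and 344, in controls 430, 403, 172 and 281, in fasted arrays 606, 247, 335, 226 and 291, and in dehydrated arrays 402, 482, 292 and 208. The groups overlapped throughout, and the standard error of its differences (0.248 to 0.375, log2) was larger than that of the other subunits named here.

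The 5 genes outside the pathway's name list that tracked the mean of the members most closely over the 23 arrays, group means removed, were C18h18orf32 (Pearson r = 0.926), Romo1, a small mitochondrial membrane protein (0.925), Pomp, the proteasome maturation factor (0.909), the glutathione transferase Gsta4 (0.907) and Grcc10 (0.904), out of 10121 candidates.

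**Figure D1:**
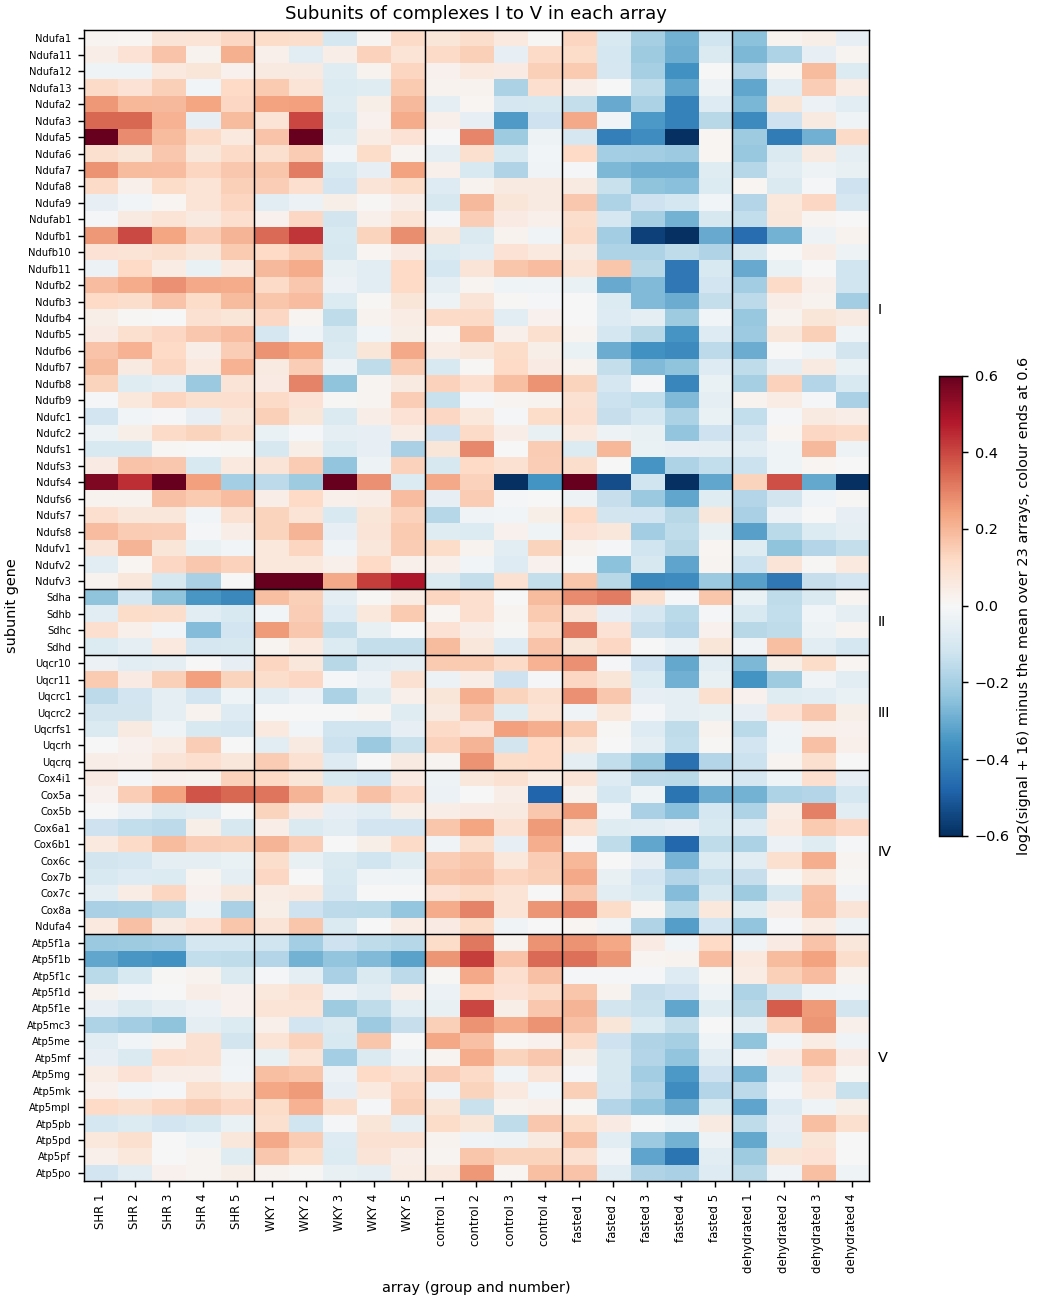
Each row is 1 of the 70 subunit genes, ordered by complex, and each column 1 of the 23 arrays. Colour gives log2(signal + 16) minus the gene's mean over all arrays, and columns such as fasted 4 and dehydrated 1 are low across most rows, while Ndufv3 is high in the WKY arrays and Sdha low in the SHR arrays.

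SHR and WKY differed in signal at 2 members, a flavoprotein-arm subunit of complex I and the catalytic subunit of complex II, both lower in the hypertensive strain. The remaining 80 tested members did not pass the test, and the distribution of their differences was centred near 0. The call share over all probe sets was 5.06% (adjusted p below 0.05, two-sided limma test on the 10 arrays with Benjamini-Hochberg adjustment over 18625 probe sets), against 2 of 82 members. Of the 82 members 7 had an unadjusted p below 0.05, as had 17.2% of all probe sets. Negative differences were found for 36 of 82 members and 48.3% of all probe sets, and the median difference was 0.013 for the members and 0.005 for all. Arrays of the 2 strains did not overlap for 4 members (Ndufb2, Ndufb5, Ndufv3 and Sdha) and for 6.33% of all probe sets.

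Ndufv3 encodes the smallest of the flavoprotein subunits of complex I, which sits beside the NADH-binding Ndufv1 and Ndufv2. Its signals were 439, 454, 403, 375 and 433 in SHR and 675, 723, 509, 581 and 610 in WKY. Every WKY array lay above every SHR array. The means were 420.6 ± 31.6 and 619.6 ± 83.1 (SD, n = 5 each), a log2 difference of -0.53 (SE 0.083, 95% interval -0.70 to -0.37, adjusted p = 0.000548 by limma). Intervals here and below are normal approximations from the SE, somewhat narrower than the t distribution of the limma test would give. The second probe set of the gene was dimmer, at 65.2 ± 9.61 in SHR and 66.0 ± 8.89 in WKY, and differed by -0.01 (adjusted p = 0.969). With both probe sets averaged the difference was -0.275 and did not pass (adjusted p = 0.0843, the highest over 20 alternatives that reached down to 8.97e-05). The Sprague Dawley control arrays had 405, 390, 460 and 390 at the first probe set. Strain and labelling set cannot be told apart between these arrays and those of SHR and WKY.

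Sdha encodes the flavoprotein of succinate dehydrogenase, which oxidises succinate and belongs both to the respiratory chain and to the tricarboxylic acid (TCA) cycle. Its signals were 780, 862, 780, 723 and 704 in SHR and 1049, 1023, 891, 931 and 954 in WKY. The highest SHR array was below the lowest WKY array. The means were 769.5 ± 61.6 and 969.7 ± 65.4 (n = 5 each), with a log2 difference of -0.33 (SE 0.064, 95% interval -0.45 to -0.20, adjusted p = 0.00402 by limma). Both calls remained when any 1 of the 10 arrays was left out, and the adjusted p of Sdha ran from 0.00139 to 0.0224 over 20 alternatives. Sdha was read by 1 probe set only. The probe sequences were not among the sources used. For both genes a strain difference in the sequence under the probes and one in transcript level cannot be told apart.

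The other subunits of complex II did not pass. Sdhb, the iron-sulphur subunit, had 836.8 ± 60.6 in SHR and 870.3 ± 61.5 in WKY (log2 -0.06, 95% interval -0.18 to 0.07, adjusted p = 0.722). The membrane anchors Sdhc (log2 -0.10, interval -0.25 to 0.06, adjusted p = 0.593) and Sdhd (0.00, -0.11 to 0.11, adjusted p = 0.991) did not pass either. Sdhaf4, an assembly factor that acts on the Sdha flavoprotein before it joins Sdhb, was not a member of the name list and rose in SHR, where it had 335.5 ± 14.2 against 232.5 ± 16.2 in WKY (a difference of 0.50, SE 0.064, adjusted p = 6.59e-05). The other 3 complex II assembly factors had differences of 0.08 (Sdhaf1, adjusted p = 0.555), 0.10 (Sdhaf2, 0.403) and -0.08 (Sdhaf3, 0.658).

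In complex I the 6 measured core subunits had a median difference of 0.005 and the 28 accessory subunits one of 0.034, with 22 of the 28 positive and 1, Ndufv3, past the threshold. Ndufs1, the large iron-sulphur subunit, had 690.1 ± 25.8 in SHR and 669.7 ± 39.2 in WKY (log2 0.04, adjusted p = 0.759), and Ndufv1, which binds NADH, had 731.4 ± 51.1 and 741.2 ± 34.7 (log2 -0.02, adjusted p = 0.91). The smallest p among positive values belonged to Ndufb5 and Ndufb2, accessory subunits of the membrane arm. Ndufb5 had 1410, 1455, 1488, 1526 and 1549 in SHR and 1268, 1341, 1272, 1345 and 1394 in WKY (log2 0.16, adjusted p = 0.0672), so the arrays did not overlap. Ndufb2 differed by 0.17 (adjusted p = 0.0873). The assembly factors Ndufaf7 (log2 0.19, adjusted p = 0.201), Ndufaf8 (0.15, 0.246) and Ndufaf4 (-0.13, 0.34) did not pass.

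Complex III differed little. Uqcrh, the hinge protein that helps cytochrome c dock, had 2340 ± 105.6 in SHR and 2124 ± 153.6 in WKY (log2 0.14, SE 0.055, adjusted p = 0.189). With quantile normalization in place of the deposited scaling it passed (0.162, adjusted p = 0.0415), as did Ndufb5 (0.154, adjusted p = 0.0478), which made 4 members called. Over all alternatives their adjusted p reached 0.364 and 0.185. Uqcrc1, a core protein of complex III, differed by -0.03 (adjusted p = 0.856) and Uqcrfs1, the Rieske iron-sulphur protein, by 0.00 (0.999).

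In complex IV all 10 subunits lay between -0.06 and 0.07. Cox4i1, the common form of subunit 4, differed by 0.04 (95% interval -0.07 to 0.14), Cox5a by 0.04, Cox6a1 by -0.03 and Cox8a by -0.03, with adjusted p of 0.802, 0.836, 0.839 and 0.864. The muscle isoform Cox7a1 spread from 14.1 to 51.8 in SHR and from 7.18 to 49.3 in WKY (log2 0.26, SE 0.308, adjusted p = 0.744). The pseudogene Cox6c-ps1 had -0.17 (adjusted p = 0.315).

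Complex V had 11 of 15 negative differences with a median of -0.016, and none passed. Atp5f1a, the alpha subunit, had 2211 ± 93.5 in SHR and 2234 ± 53.7 in WKY (log2 -0.02, interval -0.11 to 0.08, adjusted p = 0.912), and the catalytic Atp5f1b had 3124 ± 232.5 and 3141 ± 120.0 (log2 -0.01, -0.12 to 0.10, adjusted p = 0.957). Atp5pb, of the peripheral stalk, had the smallest p among them (log2 -0.08, adjusted p = 0.437).

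**Figure D2:**
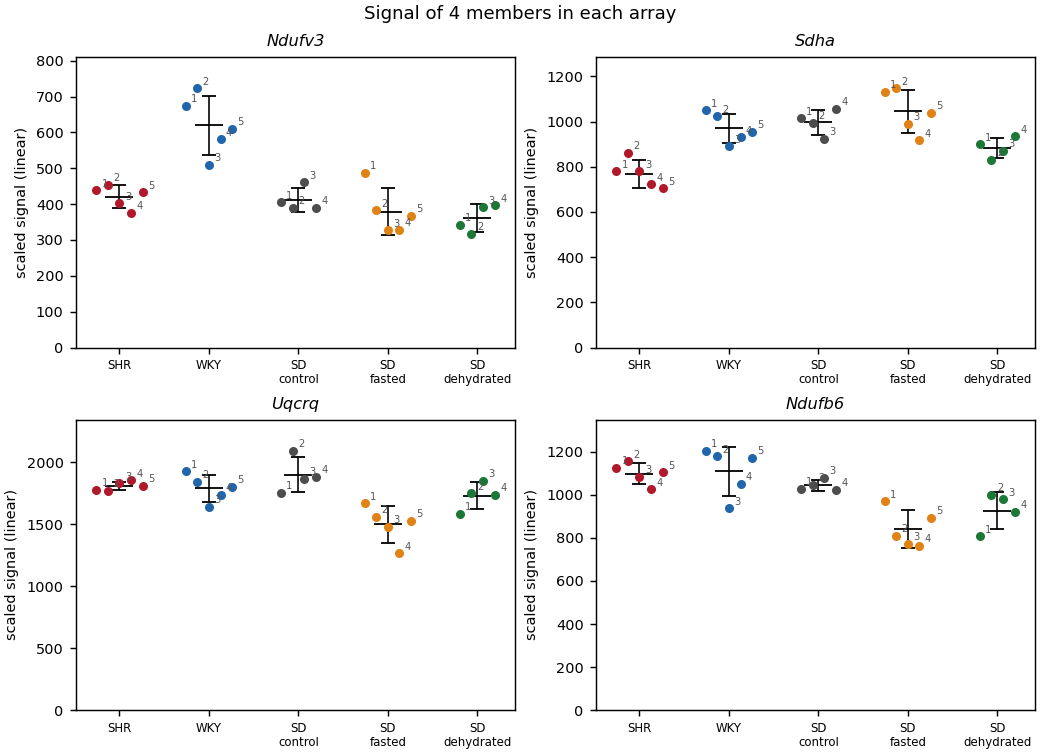
Scaled linear signal of Ndufv3, Sdha, Uqcrq and Ndufb6 in each array (points, numbered by array), with the mean and SD of each group as a bar. Ndufv3 lies at 509 to 723 in WKY and at 375 to 454 in SHR, and Uqcrq and Ndufb6 are lower in every fasted array than in every control array.

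Single other genes of mitochondrial metabolism also passed between the strains, where 5.06% of all probe sets did. Of 29 tested assembly factors of complexes I to IV outside the name list 2 rose and none fell in SHR, with a median of 0.052: Sdhaf4 and Pet100, of complex IV assembly (240.4 ± 26.8 against 177.8 ± 25.3, log2 0.41, adjusted p = 0.0142). Of 6 genes of ATP synthase assembly and regulation 1 rose, Atpaf2, a chaperone of the F1 alpha subunit (log2 0.36, adjusted p = 0.0307). Of 16 genes of pyruvate dehydrogenase and the TCA cycle 1 rose and 1 fell. Suclg1, of succinyl-CoA ligase, which makes the succinate that Sdha consumes, rose from 652.9 ± 17.8 to 754.6 ± 36.5 (log2 0.20, adjusted p = 0.0289), and Ogdh, of the oxoglutarate dehydrogenase step before it, fell from 533.9 ± 11.9 to 449.0 ± 40.5 (log2 -0.25, adjusted p = 0.0248). None passed among 16 genes of electron carriers and coenzyme Q synthesis (median 0.002), 17 carriers, porins and uncoupling proteins (-0.012), 18 genes of mitochondrial biogenesis (0.011) and 21 of import (0.083). Markers of other cells moved between the strains as well: all 8 tested microglia markers were negative in SHR, 3 of them past the threshold, and the mean of 9 such markers was 0.036 ± 0.169 in SHR and 0.341 ± 0.061 in WKY. All 7 tested fibroblast and meningeal markers were negative, 3 past the threshold, with means of -0.432 ± 0.117 and -0.102 ± 0.159. Of 4 tested choroid plexus markers 3 were negative and 1 rose in SHR, Enpp2, which oligodendrocytes also make (1113 ± 63.2 against 660.4 ± 27.1, n = 5 each, log2 0.74, adjusted p = 9.14e-08 by limma). Among neuron markers 9 of 11 were negative, 2 with an unadjusted p below 0.05, and none passed. None passed either among oligodendrocyte (5 of 6 negative), astrocyte (3 of 7), endothelial (3 of 7) and ependymal markers (3 of 5). The part of these markers in the 2 member calls was not tested. In such bulk samples fewer cells of a type and less RNA per cell cannot be told apart.

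After 48 h of fasting nearly all members had lower mean signals than in controls, by 8.8% at the median, and no member passed the test. Differences were negative for 78 of 82 members, where 49.0% of all probe sets had a negative difference, and the median was -0.133 for the members and 0.003 for all probe sets. Of the 82 members 30 had an unadjusted p below 0.05, all lower, as had 7.19% of all probe sets in either direction. The subunits moved together across arrays, so counts of members, here and in the other comparisons, are not counts of independent genes. Past the threshold of an adjusted p below 0.05 were 0 members and 0.0215% of all probe sets (limma on the 13 Sprague Dawley arrays). The groups did not overlap for 3 members (Uqcrq, Ndufb6 and Atp5f1c) and for 2.32% of all probe sets. Among the 866 probe sets at least as bright as the lower quartile of the subunits the median was -0.031, and 61.0% were negative. Of these bright probe sets 13.3% had an unadjusted p below 0.05, 91 of them lower and 24 higher.

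The median was negative in every complex. The subunit medians were -0.145 in complex I (32 of 34 negative), -0.115 in complex III (7 of 7), -0.157 in complex IV (10 of 10) and -0.176 in complex V (15 of 15). Complex II had -0.040, with 3 of 4 negative. In complex I the 28 accessory subunits had a median of -0.162 and 13 reached an unadjusted p below 0.05, and the 6 core subunits had -0.11 with 1 such value. In ATP synthase the 5 subunits of the F1 part (Atp5f1a to Atp5f1e) had -0.133 with 1 such value, that of Atp5f1c. The 10 other subunits had -0.196 with 7. None of these splits was tested. The 6 assembly factors had a median of -0.061.

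Uqcrq, a small accessory subunit of complex III, had the smallest p. Its signals were 1751, 2092, 1866 and 1881 in controls and 1667, 1559, 1476, 1265 and 1529 in fasted arrays. Every fasted array was below every control array. The means were 1897 ± 142.0 (n = 4) and 1499 ± 148.2 (n = 5), a log2 difference of -0.34 (SE 0.077, 95% interval -0.49 to -0.19, adjusted p = 0.221 by limma, and 0.0572 to 0.729 over 22 alternatives).

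Ndufb6, an accessory subunit of the membrane arm of complex I, had 1030, 1046, 1078 and 1024 in controls and 970.3, 808.8, 771.5, 762.2 and 893.1 in fasted arrays. These groups did not overlap either. The means were 1044 ± 24.4 and 841.1 ± 88.8 (log2 -0.31, SE 0.078, 95% interval -0.47 to -0.16, adjusted p = 0.289).

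Atp5mf, of the membrane part of ATP synthase, had 1711 ± 103.9 in controls and 1446 ± 105.1 after fasting (log2 -0.24, adjusted p = 0.43). Cox6a1, the form of subunit 6a found outside muscle, had 2734 ± 137.7 and 2339 ± 126.3 (log2 -0.22, adjusted p = 0.431), and Cox6b1, which lies at the interface of the complex IV dimer, had 1610 ± 139.5 and 1327 ± 161.4 (log2 -0.28, adjusted p = 0.455). Atp5f1c, the central shaft of ATP synthase, had 1728, 2016, 1848 and 1946 in controls and 1709, 1714, 1706, 1629 and 1727 after fasting, so that the lowest control array (1728.1) and the highest fasted array (1727.4) nearly met.

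The catalytic and other central subunits did not pass either. Sdha had 997.1 ± 55.3 in controls and 1045 ± 96.4 after fasting, a positive difference (log2 0.06, 95% interval -0.08 to 0.20, adjusted p = 0.892). Ndufs1 differed by -0.13 (adjusted p = 0.74), Ndufv1 by -0.10 (0.776), Uqcrc1 by -0.04 (0.937), Uqcrfs1 by -0.17 (0.62), Cox4i1 by -0.11 (0.727), Cox5a by -0.05 (0.951), Cox8a by -0.15 (0.7), Atp5f1a by -0.05 (0.93) and Atp5f1b by -0.13 (0.716). Within complex II, Sdhb differed by -0.12 (0.708), Sdhc by -0.04 (0.953) and Sdhd by -0.04 (0.946). The positive values apart from Sdha were those of Ndufs4 (0.07), Ndufaf4 (0.04) and Ndufs7 (0.00), with adjusted p of 0.986, 0.962 and 0.999.

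The fasted arrays differed among themselves more than the controls did. The mean of all members, centred over the 23 arrays on the log2 scale, was 0.081, -0.058, -0.132, -0.224 and -0.046 in fasted arrays 1 to 5 and 0.034, 0.073, -0.006 and 0.064 in control arrays 1 to 4. The group means were -0.076 ± 0.113 in fasted and 0.041 ± 0.036 in control arrays (SD, n = 5 and n = 4). Fasted 1 was higher than every control array, and the other fasted arrays were lower than every control array. Fasted 1 was the highest fasted array for 65 of the 86 members, and fasted 4 was the lowest for 67. The median within-group SD of a member was 0.141 in fasted arrays, 0.081 in controls and 0.066 in SHR, while that of all probe sets was 0.152, 0.150 and 0.139.

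Fasted 4 was also 1 of the 3 arrays with high choroid plexus markers. Without it the median difference was -0.095, with 69 negative and 10 unadjusted p below 0.05, and without fasted 1 it was -0.178, with 78 and 47. Without control 2 the number of unadjusted p below 0.05 was 14, without control 4 it was 19 and without fasted 3 it was 15. Without the 3 arrays of high choroid plexus markers, an alternative chosen after the data were seen, the median was -0.110, with 74 negative and 14 unadjusted p below 0.05. With only control arrays 3 and 4, whose label text matches that of the fasted arrays, it was -0.125, with 73 and 13. Markers of other cells had differences as well, none past the threshold. Positive were 7 of 11 neuron and 4 of 6 oligodendrocyte markers. Negative were 5 of 5 tested ependymal, 4 of 5 choroid plexus, 5 of 8 endothelial, 5 of 7 astrocyte, 5 of 7 microglia and 6 of 8 fibroblast markers. The mean of the microglia markers ran from -0.247 to -0.103 in fasted and from -0.086 to 0.044 in control arrays, without overlap. An unadjusted p below 0.05 was found for 2 of 7 microglia, 2 of 8 fibroblast and 1 of 8 endothelial markers, all lower. Over all probe sets the share was 7.19%. The part of the cell markers in the lower member signals was not tested.

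**Figure D3:**
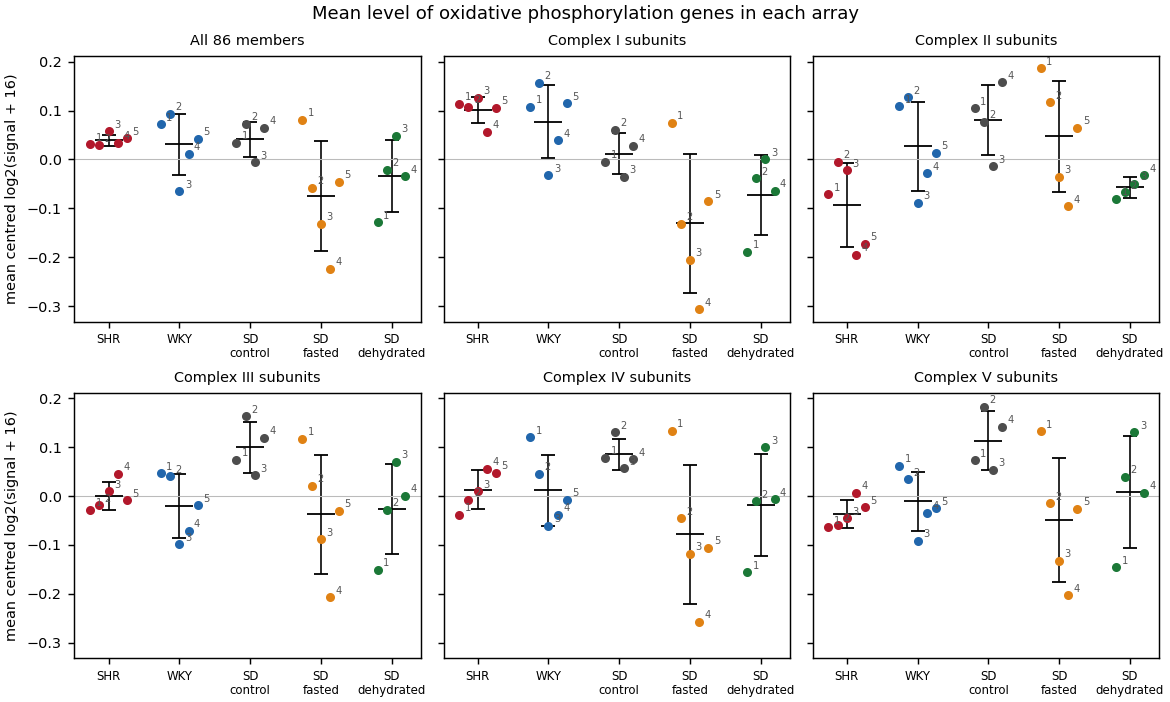
The vertical axis is the mean of log2(signal + 16), centred over the 23 arrays for each gene, over all 86 members and over the subunits of each complex. Points are arrays, numbered as in the labels, and bars give the group mean and SD. Fasted arrays spread from -0.224 to 0.081 for all members, and the SHR arrays from 0.029 to 0.058.

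Other mitochondrial genes had smaller medians after fasting and none passed. The 21 genes of protein import had a median of -0.103 (19 negative), the 29 other assembly factors -0.066 (21 negative), the 17 carriers -0.067 (13), the 16 genes of pyruvate dehydrogenase and the TCA cycle -0.049 (11), the 16 of electron carriers and coenzyme Q -0.049 (10), and the 18 genes of mitochondrial biogenesis -0.007 (10). The factors whose motif letters were searched did not pass: Nrf1 differed by -0.22 (adjusted p = 0.773), Gabpa by 0.02 (0.982), Yy1 by 0.02 (0.987) and Esrra by 0.02 (0.992). Members with and without YY1 letters had medians of -0.129 and -0.144, those with and without GABP letters -0.13 and -0.139, with and without NRF1 letters -0.138 and -0.133, and with and without ERR letters -0.178 (11 genes) and -0.128 (64 genes). The mitochondrially encoded COX1 and COX2, which are read by 1 probe set each, had differences of -0.18 (adjusted p = 0.63) and -0.16 (0.697).

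After 72 h of dehydration the members again had lower mean signals, by 6.0% at the median, and none passed. This comparison shares its control arrays with fasting, so the 2 are not independent. Differences were negative for 74 of 82 members and for 52.4% of all probe sets, with medians of -0.089 and -0.009. Among the members 11, 10 of them lower, had an unadjusted p below 0.05, as had 11.7% of all probe sets, and 0 members had an adjusted p below 0.05, against 0.166% of all probe sets (limma). The share of unadjusted p values below 0.05 among the members (13.4%) was therefore near that of all probe sets. Among the 866 probe sets at least as bright as the lower quartile of the subunits this share was 20.4%. The median difference of these bright probe sets was -0.004, and 51.4% of them were negative. The groups did not overlap for 7 members (Cox7b, Ndufb6, Ndufv1, Sdhb, Uqcr10, Uqcrc1 and Uqcrfs1) and for 6.68% of all probe sets.

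The subunit medians were -0.081 in complex I, -0.147 in complex II, -0.133 in complex III, -0.100 in complex IV and -0.111 in complex V. All subunits of complexes II, IV and V were negative, 6 of 7 in complex III and 30 of 34 in complex I. The core and accessory subunits of complex I had medians of -0.104 and -0.074, and the F1 part and the other subunits of ATP synthase -0.111 and -0.114.

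Ndufv1, the NADH-binding subunit of complex I, had the smallest p. Its signals were 758, 710, 669 and 770 in controls and 666, 591, 619 and 633 in dehydrated arrays. The groups did not overlap, though control 3 (669.1) and dehydrated 1 (666.0) were close. The means were 726.9 ± 46.4 and 627.2 ± 31.3 (n = 4 each), a log2 difference of -0.21 (SE 0.071, 95% interval -0.35 to -0.07, adjusted p = 0.257 by limma).

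Uqcrfs1, the Rieske protein, had 1353, 1326, 1479 and 1452 in controls and 1114, 1228, 1275 and 1269 in dehydrated arrays, again without overlap (log2 -0.20, adjusted p = 0.299). Ndufb8 had 223.1 ± 12.2 and 185.2 ± 22.3 (log2 -0.25, adjusted p = 0.341) and Ndufa11 1410 ± 84.6 and 1226 ± 110.8 (log2 -0.20, adjusted p = 0.363). In complex II, Sdha had 1014, 994, 924 and 1056 in controls and 900, 830, 871 and 934 in dehydrated arrays (log2 -0.17, 95% interval -0.32 to -0.02, adjusted p = 0.39), and Sdhb had 880.1 ± 44.1 and 791.8 ± 30.5 (log2 -0.15, adjusted p = 0.406). Uqcrc1 differed by -0.17 (adjusted p = 0.391), Sdhc by -0.14 (0.535), Sdhd by -0.09 (0.679), Ndufs1 by -0.11 (0.638), Cox4i1 by -0.06 (0.78), Cox5a by -0.07 (0.847), Cox6a1 by -0.12 (0.502), Cox8a by -0.16 (0.463), Atp5f1a by -0.11 (0.602) and Atp5f1b by -0.15 (0.465).

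Atp5if1, which binds the F1 head and blocks ATP hydrolysis when the membrane potential falls, was the member with the smallest p on the positive side. It had 1316, 1214, 1044 and 1269 in controls and 1350, 1271, 1363 and 1494 in dehydrated arrays (log2 0.18, SE 0.08, adjusted p = 0.397). The groups overlapped, and its second probe set differed by -0.08 (adjusted p = 0.804). The other 7 positive values were Ndufs4 0.115, Ndufaf1 0.066, Ndufc2 0.041, Ndufaf4 0.038, Ndufv2 0.013, Ndufa3 0.002 and Uqcrc2 0.002.

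Other mitochondrial genes had medians after dehydration near that of the members, and none passed. The 17 carriers had a median of -0.090 (13 negative), the 29 other assembly factors -0.079 (22), the 21 import genes -0.078 (17), the 16 genes of electron carriers and coenzyme Q -0.072 (13) and the 16 of pyruvate dehydrogenase and the TCA cycle -0.070 (12). Biogenesis genes had -0.036 (11 of 18 negative), and the 6 genes of ATP synthase assembly and regulation, of which Atp5if1 is 1, had 0.043.

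Dehydrated 1 was the lowest of its group for 60 of 86 members and dehydrated 3 the highest for 51. The mean of all members was -0.129 in dehydrated 1 and 0.049 in dehydrated 3. Without the 3 arrays of high choroid plexus markers the median was -0.143, with 79 negative and 20 unadjusted p below 0.05. Leaving out 1 array gave 3 such values without control 2, 4 without dehydrated 1, 5 without control 4 or dehydrated 2 and 7 without dehydrated 4, and the median without dehydrated 1 was -0.056. With control arrays 3 and 4 only, the median was -0.084, with 67 negative and 5 such values. Of the markers of other cells, 7 of 7 tested microglia, 7 of 8 fibroblast, 5 of 5 ependymal, 5 of 6 oligodendrocyte and 5 of 8 endothelial markers were negative. Positive were 8 of 11 neuron, 4 of 7 astrocyte and 4 of 5 choroid plexus markers, and none of any list was past the threshold. The mean of the fibroblast markers ran from -0.004 to 0.274 in dehydrated and from 0.228 to 0.506 in control arrays. An unadjusted p below 0.05 was found for 5 of 8 fibroblast and 1 of 7 microglia markers, all lower. It was also found for 4 of 11 neuron markers, all higher, and for no marker of the other cell lists. Over all probe sets the share was 11.7%. The part of these markers in the lower member signals was not tested.

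**Figure D4:**
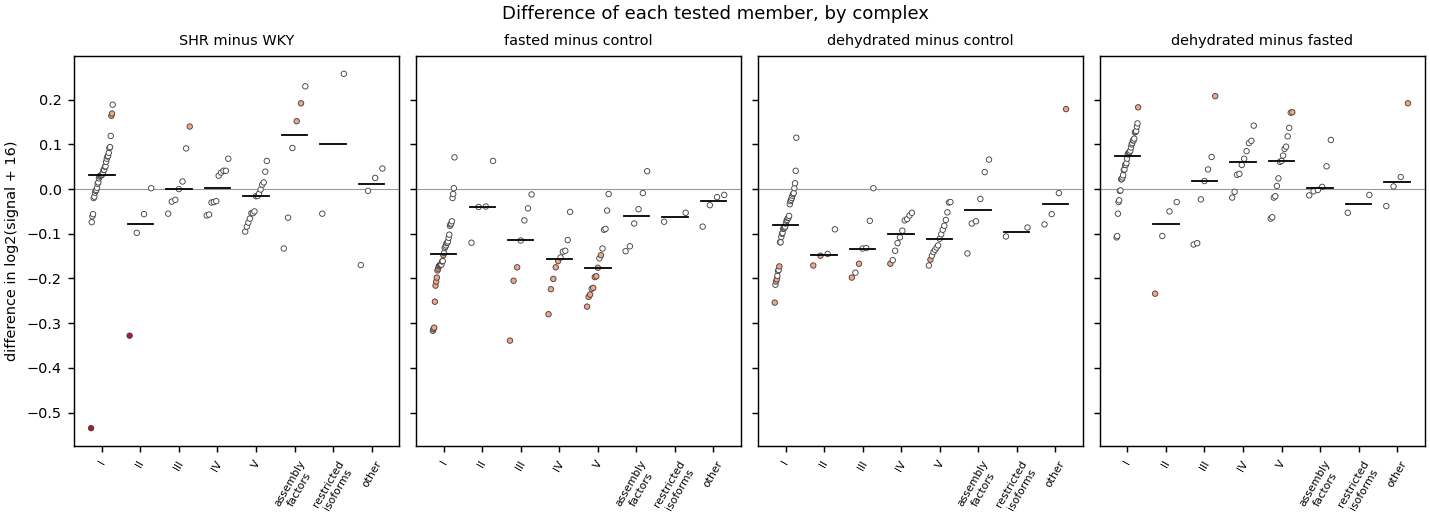
Each point is a tested member, placed by its complex or class, and the vertical axis is the difference in log2(signal + 16) in each of the 4 comparisons. Filled dark points passed (adjusted p below 0.05), light orange points had an unadjusted p below 0.05 only, white points neither, and bars are medians. The 2 dark points are Ndufv3 and Sdha in the strain comparison, and most points of the fasted and dehydrated comparisons lie below 0.

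Between dehydrated and fasted arrays no member passed, against 0.0322% of all probe sets. Differences were negative for 26 of 82 members and for 52.7% of all probe sets, with a median of 0.048 for the members. An unadjusted p below 0.05 was found for 5 members and 10.0% of all probe sets. Among the 866 probe sets at least as bright as the lower quartile of the subunits, 35.8% were negative and the median was 0.035. Of these bright probe sets 13.6% had an unadjusted p below 0.05. Arrays did not overlap for 1 member (Atp5f1c) and for 3.23% of all probe sets. Sdha had the smallest p (883.8 ± 44.2 in dehydrated and 1045 ± 96.4 in fasted arrays, log2 -0.23, 95% interval -0.37 to -0.09, adjusted p = 0.275). On the positive side Uqcrq differed by 0.21 (adjusted p = 0.384), Atp5if1 by 0.19 (0.415), Ndufb2 by 0.18 (0.454), Atp5mf by 0.17 (0.413) and Atp5f1c by 0.12 (0.543). All 4 subunits of complex II were negative (median -0.078), while complexes I, IV and V had medians of 0.073, 0.061 and 0.063. Complex III lay between, with a median of 0.018 and 3 of 7 negative, and the difference between complexes was not tested. The sign of the overall median rested on few arrays: without the 3 arrays of high choroid plexus markers it was -0.020, with 51 of 82 negative. The median was 0.100 without fasted 1 and 0.086 without dehydrated 1, with 16 and 14 unadjusted p below 0.05, and 0.015 without fasted 4 and 0.020 without dehydrated 3, with 4 and 2.

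Levels across the 5 groups are given as a description. The mean of the complex V subunits, centred over the arrays, was 0.113 ± 0.060 in controls, 0.008 ± 0.115 in dehydrated, -0.011 ± 0.060 in WKY, -0.037 ± 0.029 in SHR and -0.049 ± 0.128 in fasted arrays. For complex I the order was otherwise, with 0.102 ± 0.027 in SHR, 0.077 ± 0.074 in WKY, 0.012 ± 0.041 in controls, -0.073 ± 0.082 in dehydrated and -0.131 ± 0.142 in fasted arrays. Within each of these orders neighbouring groups overlapped. Atp5f1b had signals of 4221 to 5010 in control arrays and of 2909 to 3381 in SHR and 3005 to 3322 in WKY, and the mitochondrially encoded COX2 had means of 7704 ± 830.2, 5232 ± 510.0 and 5160 ± 586.4. Strain and labelling set cannot be told apart in these values.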

How the data were processed

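RNA from the area postrema was measured on 23 arrays, and groups were taken from the sample titles and treatment texts. The authors deposited 1 intensity signal per probe set and array on a linear scale, made with the Affymetrix program GCOS 1.2 according to the notes on processing (per the labels), and the program's settings were not among the sources used here. The mean left after trimming 2% at each end was 100 in every array, so the values were used without further normalization. The number of arrays limits the precision.

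Gene symbols came from the platform annotation, with 20826 probe sets of 1 symbol, 436 of several and 9780 of none, and all 86 member symbols matched a gene table of GRCr8. The 7 probe sets that pair a fitting symbol with another (Atp5mc1, Atp5mc2, Cox5a, Cox7a2, Ndufa10, Ndufs5 and Uqcrb) were left out, and of these genes Cox5a kept another probe set. Promoter sequences are from RefSeq (GRCr8), matched by gene ID.

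Signals were transformed as log2(signal + 16), which compresses differences at low signal. Control probe sets were dropped, as were those with a mean under the 40th percentile of the fitted arrays, and 18625 remained. SHR and WKY were compared on 10 arrays, and the 13 Sprague Dawley arrays shared 1 model with 3 contrasts. The two-sided tests used limma (version 3.58.1, R 4.3.3, eBayes with trend and robust), adjusted by Benjamini-Hochberg over all probe sets kept, with a threshold of 0.05. Python 3.11.15 with pandas 2.3.3, numpy 2.4.6, scipy 1.17.1 and matplotlib 3.10.9 did the rest. On simulated data with 18625 probe sets a shift of 0.5 was called for 67.7% of shifted probe sets in SHR minus WKY, 68.9% in fasted minus control and 51.6% in dehydrated minus control, and a shift of 0.25 for 10.6%, 7.5% and 4.5%. The simulated errors were independent between probe sets, and the shifted probe sets were drawn at random. The members moved together and had smaller median within-group SDs, so these shares do not give the power for the members.

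The members and lists were chosen with earlier results of these data known. Named are the members that passed, in each direction the 5 with the smallest p (fewer where fewer had that sign), a constant set of central subunits and isoforms where measured, the 5 highest and lowest in level, up to 3 called genes per list, and the 5 genes most like the members. The factors of the searched motifs, the complex II assembly factors and the members without overlap were named after their values were seen. The split into core and accessory subunits was also made then. The settings varied were the normalization (quantile), the pseudocount (1 or 64), the filter (none, or the 60th percentile), the variance model (without trend and robust), all 23 arrays in 1 model, only the 2 groups compared, control arrays 3 and 4 only, the replicate number as a block, the Gapdh ratio as covariate, the mean of a gene's probe sets, and each array left out.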

Additional observations from a re-analysis of the deposited data

Results flagged for a closer look

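The mean of the members, the means of the 5 complexes and the 28 members with a call or a smallest p were checked for 1 array that stands apart from the rest of its group, by the gap to the nearest array as a share of the group's range on the log2 scale. Of 170 groups checked 6 (3.5%) were past the limit, and chance flags about 1 in 20. Ndufaf7 in control 3 was high (132.4, next 117.8, ratio 0.858), and Ndufa11 in the same array was low (1285, next 1441, ratio 0.846). Fasted 1 was low for Ndufaf4 (103.9, next 142.8, ratio 0.762) and high for Cox6a1 (2559, next 2320, ratio 0.752). Atp5f1c was low in fasted 4 (1629, next 1706, ratio 0.788), and Ndufs7 was low in SHR 4 (886.6, next 940.8, ratio 0.714). None of the means over members or complexes had such an array, fasted 4 included.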

How the results depend on the processing

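The number of called members was 2 between the strains with every setting except quantile normalization (4) and the mean of a gene's probe sets (1, Sdha), and 0 in the other comparisons with every setting. The medians kept their sign except between the strains without WKY 3 (-0.012) and, for dehydrated minus fasted, without the 3 arrays of high choroid plexus markers (-0.020). Same-numbered arrays did not all deviate together, and the reported fits did not pair them. SHR 1 and SHR 2 correlated best with the WKY array of the same number (0.162 and 0.28, group means removed), and SHR 3, 4 and 5 with another. In the other comparisons same-numbered arrays correlated at -0.171 to 0.056. With the replicate block 2 members were called between the strains and 0 elsewhere, and the medians were 0.013, -0.143, -0.089 and 0.056. The unadjusted counts after fasting and dehydration were 30 and 11 in the reported fit, 18 and 4 with the block, 18 and 3 without trend and robust, 19 and 7 with the 3' to 5' Gapdh ratio as a covariate and 28 and 17 with only the 2 groups compared. For dehydrated minus fasted the count of 5 became 2 with the Gapdh covariate and 3 without the high choroid plexus arrays. Over all probe sets the calls were 942 between the strains (419 with 1 mean per gene, 698 to 1073 otherwise), 4 after fasting (0 to 6), 31 after dehydration (2 to 74) and 6 for dehydrated minus fasted (1 to 10).

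Members near 0 changed sign, none of them called, and the cause was not tested. Between the strains, leaving out 1 array moved Atp5f1b from -0.039 to 0.015, Cox8a from -0.058 to 0.013, Ndufv1 from -0.057 to 0.005, Sdhd from -0.027 to 0.032 and Uqcrfs1 from -0.025 to 0.027. Quantile normalization gave Atp5f1a 0.001 and Atp5f1b 0.016, the Gapdh covariate Ndufv1 0.024, and averaged probe sets Sdhd -0.023. After fasting, single omissions moved Cox5a from -0.171 to 0.016, Cox7a1 from -0.095 to 0.007, Ndufaf4 from -0.011 to 0.132, Ndufs4 from -0.184 to 0.231, Ndufs7 from -0.041 to 0.033 and Sdhc from -0.113 to 0.010. Quantile normalization gave Atp5f1a 0.006, control arrays 3 and 4 gave Cox5a 0.050, Ndufs7 -0.050 and Sdhd 0.002, the replicate block gave Ndufs7 -0.025, and without the high choroid plexus arrays Cox5a was 0.068, Ndufaf4 -0.032 and Ndufs4 -0.065. After dehydration omissions moved Ndufaf4 from -0.013 to 0.074 and Ndufs4 from -0.141 to 0.324. Cox5a was 0.031 with control arrays 3 and 4, and without the choroid plexus arrays Ndufaf4 was -0.038 and Ndufs4 -0.084. For dehydrated minus fasted omissions moved Atp5f1b from -0.053 to 0.026, Cox5a from -0.086 to 0.028, Cox7a1 from -0.121 to 0.045, Cox8a from -0.062 to 0.051, Ndufs1 from -0.033 to 0.077, Sdhb from -0.058 to 0.003 and Uqcrfs1 from -0.059 to 0.020. The Gapdh covariate gave Cox7a1 0.011, Cox8a 0.003, Ndufs1 -0.009 and Uqcrfs1 0.007, and without the choroid plexus arrays Cox4i1 was -0.008, Cox7a1 0.046 and Ndufs1 -0.044.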
